A study of Mus musculus with 34 samples.

Results

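Livers of 17 control mice, of 34 livers in the series, were used to ask which changes on a high-fat diet (HFD) repeat in 2 control cohorts and which differ between them. The WT cohort held 5 HFD and 3 chow livers from mice described as wild-type littermates of Bcl2AdTG mice, a line in which Adipoq-Cre, active in adipocytes, switches on a Cre-inducible Bcl2 transgene. The S100a8fl/fl cohort, written S100a8f/f in the labels, held 5 HFD and 4 chow livers from mice with loxP-flanked S100a8 alleles and no Cre, littermates of S100a8fl/flCx3cr1Cre mice. All 17 mice were male and began their diets at 8 weeks of age, with 60% of energy from fat in the HFD and 10% in the chow. The diets lasted 3 months in the WT cohort, whereas for the S100a8fl/fl cohort the study's text gives 4 months and its legends for the liver RNA sequencing give 3 months. All 13377 genes held by both count tables, of 14876 in either, were tested. For each gene the HFD response was estimated in each cohort, and the S100a8fl/fl response was subtracted from the WT response on the log2 scale.

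Mouse line, experiment, count table and possibly diet length all change together with cohort, so their parts cannot be told apart. A cohort effect of the same fold on both diets cancels in the difference of responses, and levels of a gene in the 2 cohorts are set side by side below only as a description. Each library is labelled as a replicate of its group, and p-values measure the spread between these libraries. In whole liver, fewer cells of a type and less RNA per cell cannot be told apart.

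Libraries held 20103676 to 52347235 counts over the shared genes, and 9 hepatocyte markers summed to 68332 to 110311 CPM, the counts of a gene scaled to a fixed library total, in every library. Levels are CPM scaled by the trimmed mean of M values (TMM) throughout. Across the 500 most variable genes the first principal component carried 53.2% of the variance and separated the 10 HFD livers from the 7 chow livers, and the second carried 21.6% and separated the cohorts. Individual libraries stood apart and are followed below. Chow WT library 2 correlated with the other chow WT libraries at r = 0.954 to 0.956, against 0.989 between those 2. The library labelled HFD WT 1 held 22.4 CPM of Bcl2 before TMM scaling, a gene singled out after its values were seen, against 2.90 to 3.17 CPM in the other HFD WT libraries and 8.49 to 13.0 CPM in the HFD Bcl2AdTG libraries. On chow, Bcl2 was at 4.12 to 8.27 CPM in Bcl2AdTG and 7.66 to 9.94 CPM in WT libraries, so its level does not separate the genotypes there. Chow S100a8fl/fl library 2 was high in acute phase transcripts, and chow S100a8fl/fl library 5 was high in immediate early transcripts. The adipocyte markers Adipoq, Lep, Plin1 and Retn, 8 T and NK cell markers and S100a8 itself were not among the shared genes.

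The liver clock is a transcriptional loop. BMAL1 and CLOCK bind E-box sequences and switch on the Per, Cry, Nr1d, Dbp and Tef genes. PER and CRY proteins repress BMAL1 and CLOCK, NR1D1 and NR1D2 repress Bmal1, and the PAR bZIP factors DBP, TEF and HLF compete with NFIL3 at D-box sequences. Feeding time resets this loop in liver, and HFD feeding is known for lipid storage, inflammation, matrix deposition and the loss of male-biased transcripts in male mouse liver.

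Some short windows of the clock gene promoters carry these letters, and those of Per3, Tef and Ciart are shown as examples that hold a motif. Per3 and Tef changed their diet response between cohorts, and Ciart is a direct E-box output with a diet response called in the S100a8fl/fl cohort. Dbp and Nr1d2 also changed their diet response, and their windows held no motif. Sequences are RefSeq's for GRCm38.p6 and run 5′ to 3′ on the gene's own strand, and capitals mark the motif. Both strands of the 250 bases before each annotated start were searched for the E-box CACGTG and for the D-box written as TTATGTAA, TTACATAA or TTACGTAA. The Per3 window lies at chr4:151044786-151044900 on the minus strand, with its D-boxes 205 and 158 bases before the start.
Per3: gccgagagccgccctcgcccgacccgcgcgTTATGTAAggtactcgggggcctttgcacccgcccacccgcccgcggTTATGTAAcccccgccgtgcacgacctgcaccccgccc
The Tef window lies at chr15:81811246-81811311 on the plus strand, with its E-box 138 bases before 1 of 2 annotated starts, and the window of the other start also held 1 E-box.
Tef: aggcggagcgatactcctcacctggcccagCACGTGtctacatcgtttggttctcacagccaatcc
The Ciart window lies at chr3:95882237-95882374 on the minus strand, with E-boxes 116, 58 and 44 bases before the start.
Ciart: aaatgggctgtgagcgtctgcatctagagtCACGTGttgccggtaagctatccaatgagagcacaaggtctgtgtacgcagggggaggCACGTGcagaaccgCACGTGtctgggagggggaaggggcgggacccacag
Of 32851 promoter windows in the whole RefSeq table, 6.02% held the E-box and 0.931% held the D-box. Per1, Cry1 and Bhlhe41 also held 1 E-box in a window. The windows of Dbp, Nr1d1, Nr1d2, Bmal1, Clock, Nfil3, Hlf, Cry2, Rora and Csnk1e held neither set of letters, which says only that these letters are not in those 250 bases.

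The diet response of 4 clock output genes, Dbp, Per3, Tef and Nr1d2, differed between the cohorts. All 4 were higher on HFD in the WT cohort; in the S100a8fl/fl cohort Tef was lower on HFD and the other 3 passed no test. Dbp (chr7:45705088-45710203, plus strand, GRCm38), which encodes the PAR bZIP activator read as a standard output of the clock, measured 31.2, 31.1, 28.7, 34.4 and 24.6 CPM in HFD WT livers, against 0.639, 0.475 and 1.38 CPM in chow WT livers. In the other cohort it measured 137, 151, 142, 140.2 and 72.0 CPM in HFD S100a8fl/fl livers, against 83.6, 144, 128 and 156 CPM in chow S100a8fl/fl livers. The 3 chow WT livers were thus far below the other 14, while the S100a8fl/fl diets overlapped. The log2 fold change was 5.21 ± 0.35 (SE, adjusted p = 1.92e-07) in the WT cohort and 0.01 ± 0.22 (adjusted p = 0.985) in the S100a8fl/fl cohort, and the difference was 5.20 ± 0.40 (95% interval 4.36 to 6.05, adjusted p = 2.06e-06, edgeR quasi-likelihood test). Across all genes 0.396% passed that test of the difference.

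Per3 (chr4:151003652-151044665, minus strand, GRCm38), a period gene of the repressor limb, measured 12.0, 11.8, 8.39, 16.6 and 12.8 CPM in HFD WT livers, against 1.71, 2.30 and 3.24 CPM in chow WT livers. It measured 30.9, 38.4, 35.9, 37.0 and 36.6 CPM in HFD S100a8fl/fl livers, against 39.8, 37.9, 32.8 and 39.6 CPM in chow S100a8fl/fl livers. As for Dbp, the chow WT livers were below all others and the S100a8fl/fl diets overlapped. The response was 2.36 ± 0.21 in the WT cohort (adjusted p = 1.74e-06) and -0.07 ± 0.16 in the S100a8fl/fl cohort (adjusted p = 0.796), a difference of 2.43 ± 0.27 (95% interval 1.87 to 2.99, adjusted p = 0.000153).

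Tef (chr15:81802421-81826863, plus strand, GRCm38), the PAR bZIP partner of Dbp, moved in opposite directions. It measured 96.2, 102, 92.9, 89.7 and 73.0 CPM in HFD WT livers, against 39.4, 30.3 and 47.2 CPM in chow WT livers. It measured 159, 198, 185, 201 and 180.2 CPM in HFD S100a8fl/fl livers, against 230.2, 236, 283 and 268 CPM in chow S100a8fl/fl livers. No library overlapped between diets in either cohort, the chow WT livers being the lowest of the 17 and the chow S100a8fl/fl livers the highest. The response was 1.22 ± 0.15 (adjusted p = 3.497e-05) against -0.46 ± 0.13 (adjusted p = 0.0181), a difference of 1.68 ± 0.20 (adjusted p = 0.000296). The decrease in the S100a8fl/fl cohort was not called without chow S100a8fl/fl 4 (adjusted p = 0.056) or HFD S100a8fl/fl 1 (adjusted p = 0.0521).

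Nr1d2 (chr14:18204054-18239127, minus strand, GRCm38), the REV-ERBβ repressor, measured 65.0, 72.4, 86.6, 62.5 and 54.3 CPM in HFD WT livers, against 30.7, 34.6 and 39.6 CPM in chow WT livers. It measured 73.1, 80.0, 75.6, 73.1 and 61.6 CPM in HFD S100a8fl/fl livers, against 78.5, 71.7, 89.5 and 80.5 CPM in chow S100a8fl/fl livers. Again the chow WT livers stood below the rest. The response was 0.96 ± 0.14 in the WT cohort (adjusted p = 0.000277) and -0.14 ± 0.13 in the S100a8fl/fl cohort (adjusted p = 0.456), a difference of 1.10 ± 0.19 (adjusted p = 0.0187), not called without chow WT 1 (adjusted p = 0.0587). The differences of Dbp, Per3 and Tef were called with each of the 17 libraries left out in turn, and all 4 were called with replicate number as a block.

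**Figure D1:**
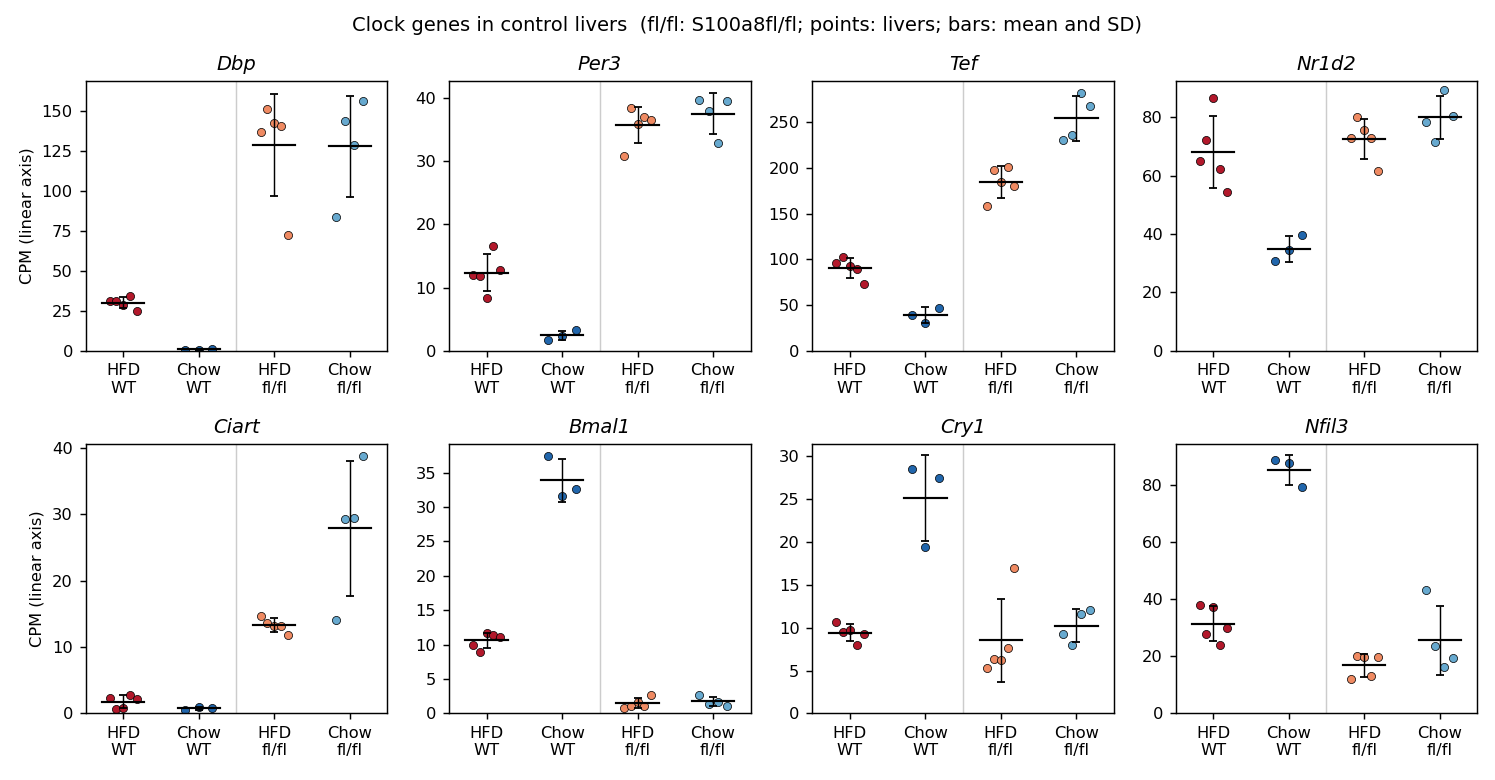
TMM-scaled CPM (linear axes from 0) of 8 clock genes in each of the 17 livers, 1 panel a gene and 1 point a liver, with HFD and chow of the WT cohort on the left and of the S100a8fl/fl cohort on the right, and lines at the mean with SD. For Dbp, Per3, Tef and Nr1d2 the 3 chow WT livers lie below the other 14, with Dbp at 0.475 to 1.38 CPM, and for Bmal1, Cry1 and Nfil3 they lie above them.

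A second clock list holds the positive limb and its partners, with the repressors Cry1 and Nfil3 placed among them. Bmal1, Clock, Nfil3, Cry1 and Rora of this list were lower on HFD in the WT cohort. None of the list's differences between cohorts passed the edgeR test. Bmal1, the partner of CLOCK, measured 9.89, 8.98, 11.7, 11.4 and 11.1 CPM in HFD WT livers, against 37.4, 31.5 and 32.7 CPM in chow WT livers. It measured 0.845, 1.14, 1.66, 1.15 and 2.73 CPM in HFD S100a8fl/fl livers, against 2.71, 1.44, 1.68 and 1.13 CPM in chow S100a8fl/fl livers. The WT diets did not overlap and the S100a8fl/fl diets did, with every S100a8fl/fl liver below every WT liver. The responses were -1.67 ± 0.25 (adjusted p = 0.000251) and -0.21 ± 0.29 (adjusted p = 0.642), and the difference was -1.47 ± 0.39 (95% interval -2.27 to -0.66, adjusted p = 0.125). It was called by DESeq2 and by limma-voom (adjusted p = 0.0126 and 0.0311).

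Nfil3, the repressor that opposes Dbp at D-boxes, measured 38.2, 27.8, 37.3, 24.1 and 29.96 CPM in HFD WT livers, against 89.1, 87.8 and 79.3 CPM in chow WT livers. Its responses were -1.44 ± 0.25 in the WT cohort (adjusted p = 0.00095) and -0.59 ± 0.24 in the S100a8fl/fl cohort (adjusted p = 0.0842), and the difference of -0.84 ± 0.35 was not called (adjusted p = 0.413). Cry1, a repressor whose transcript peaks later than the Per genes, measured 10.7, 9.47, 9.70, 7.95 and 9.24 CPM in HFD WT livers, against 28.5, 19.4 and 27.5 CPM in chow WT livers. Its responses were -1.42 ± 0.28 (adjusted p = 0.00233) and -0.26 ± 0.27 (adjusted p = 0.507), with a difference of -1.15 ± 0.39 (adjusted p = 0.264). Bmal1, Nfil3 and Cry1 were thus highest in the chow WT livers among the 4 groups' means, the reverse of Dbp, Per3, Tef and Nr1d2. Clock and the nuclear receptor Rora also passed the test in the WT cohort, at -0.42 ± 0.13 and -0.57 ± 0.14, but not with replicate number as a block (adjusted p = 0.135 and 0.0526). The WT response of Clock was not called in 4 of the 17 fits that left out a library (adjusted p up to 0.112, without chow WT 1), and that of Rora was not called without chow WT 2 (adjusted p = 0.0628). The hour of tissue collection and whether the mice were fed or fasted are not given in the sources used here, and their part in the clock and nutrient results was not tested. Of the 8 measured genes of this list, 5 were lower on HFD in the WT cohort, Cry1 and Nfil3 among them. In the S100a8fl/fl cohort 0 passed, and 1, Csnk1e, was higher with the block (adjusted p = 0.0357).

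In the S100a8fl/fl cohort the clock transcripts that fell on HFD were Tef, Ciart and Bhlhe41. Ciart, a repressor of BMAL1 and CLOCK, measured 14.7, 13.6, 13.2, 13.1 and 11.8 CPM in HFD S100a8fl/fl livers, against 14.1, 29.4, 29.4 and 38.7 CPM in chow S100a8fl/fl livers, and 0.471 to 2.75 CPM in all WT livers. Its S100a8fl/fl response of -1.07 ± 0.32 (adjusted p = 0.0237) was not called with the block (adjusted p = 0.0678), and was not called without chow S100a8fl/fl 5 (adjusted p = 0.0816), HFD S100a8fl/fl 5 (adjusted p = 0.0522) or chow S100a8fl/fl 4 (adjusted p = 0.0503). Its difference of 2.29 ± 0.56 missed the threshold (adjusted p = 0.0923), and was called by DESeq2 and by limma-voom (adjusted p = 0.00491 and 0.0253). Bhlhe41, the DEC2 repressor, measured 6.08, 4.66, 5.43, 4.67 and 2.47 CPM in HFD S100a8fl/fl livers, against 4.21, 12.5, 11.0 and 16.7 CPM in chow S100a8fl/fl livers. Its response was -1.25 ± 0.31 (adjusted p = 0.00916, or 0.074 with the block), and its difference was 1.23 ± 0.51 (adjusted p = 0.414). Chow S100a8fl/fl library 1 was the lowest of its group for Dbp, Per2, Ciart, Bhlhe40 and Bhlhe41, and HFD S100a8fl/fl library 5 was the lowest of its group for Dbp and the highest for Bmal1 and Cry1.

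The remaining clock genes passed no test of the main edgeR fit, in either cohort or for the difference. Per1 had a difference of 1.65 ± 0.59 (95% interval 0.42 to 2.88, adjusted p = 0.309, or 0.0448 by limma-voom) and Per2 one of 0.82 ± 0.44 (95% interval -0.10 to 1.75, adjusted p = 0.58). Nr1d1, the REV-ERBα repressor, had a difference of 0.08 ± 0.52 (95% interval -1.01 to 1.16), so a difference between cohorts of up to 1 log2 unit in either direction lies within its error. Hlf, Bhlhe40, Cry2 and the kinases Csnk1d and Csnk1e had differences from -0.38 to 0.68, with adjusted p from 0.517 to 0.949. Npas2 was not among the shared genes. In all, the list of repressors and outputs held 12 genes, without Cry1 and Nfil3, repressors that were lower on HFD in the WT cohort. Of these 12 genes, 4 were higher in the WT cohort (8.32% of all genes) and 3 lower in the S100a8fl/fl cohort (9.46% of all genes). Their median response was 0.72 against -0.26, while the medians over all genes tested were -0.01 and -0.04.

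Over all 13377 genes, the diet changed 2050 genes in the WT cohort (15.3%), 1113 higher (8.32%) and 937 lower (7.0%) on HFD. It changed 2766 in the S100a8fl/fl cohort (20.7%), 1501 higher (11.2%) and 1265 lower (9.46%). Counts of called members in the gene and marker lists below are to be read beside these shares. In both cohorts 1117 genes (8.35%) changed in the same direction, 676 of them higher (5.05%) and 441 lower (3.30%). They made up 54.5% of the WT calls and 40.4% of the S100a8fl/fl calls. Another 14 genes were called in both cohorts in opposite directions. Of the 919 genes called in the WT cohort alone, 805 had the same sign in the S100a8fl/fl cohort, and of the 1635 called in the S100a8fl/fl cohort alone, 1436 had the same sign in the WT cohort. Over all genes the 2 responses correlated at Pearson's r = 0.75, a description across genes, which are not independent replicates, of cohorts that share no livers.

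The difference itself passed the test for 53 genes (0.396%), 20 positive (0.15%) and 33 negative (0.247%), and 1322 genes had an unadjusted p under 0.05. A median standard error of 0.28 for the difference, against 0.20 and 0.19 for the WT and S100a8fl/fl responses, sets what could be seen. Accordingly 899 of the 919 genes called in the WT cohort alone, and 1615 of the 1635 called in the S100a8fl/fl cohort alone, had no called difference and are not shown to differ. The other 20 and 20 genes were called in one cohort only and had a called difference. A missing call in the other cohort does not show that it had no response, as for Pdk4 below. A further 11 were called in opposite directions, and 2, Pnldc1 and Insig2, were called in the same direction with different sizes.

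Most replicate numbers were shared between diets, and same-numbered WT livers deviated together at r = 0.134, 0.18 and 0.166. The counts with replicate number as a block therefore stand beside these. The match by number was not uniform, as HFD WT 3 deviated more closely with another chow WT library than with chow WT 3. HFD WT 4, HFD WT 5 and HFD S100a8fl/fl 3 had no chow library of the same number. With the block they did not bear on the diet responses, so a call lost there can also come from fewer livers. The block left 1213 WT calls, 703 repeated genes and 31 called differences, of which 18 were among the 53. Leaving out chow WT library 2 left 1277 WT calls and 39 differences. Without the library labelled HFD WT 1 there were 30 differences, and without both there were 1246 WT calls, 760 repeated genes and 38 differences. Other single libraries also moved the count of differences, to 23 without chow WT 1, 29 without chow WT 3, 33 without HFD WT 4, chow S100a8fl/fl 4 or HFD S100a8fl/fl 1, and 34 without HFD S100a8fl/fl 4. All 53 kept their sign in each of these fits, and 14 were called in every one of the 17 fits that left out a library: Dbp, Ppard, Per3, Tef, Lgalsl, Klhl21, Dpt, Ddc, Chka, Irs2, Elovl3, Pnldc1, Cldn1 and Septin9.

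**Figure D2:**
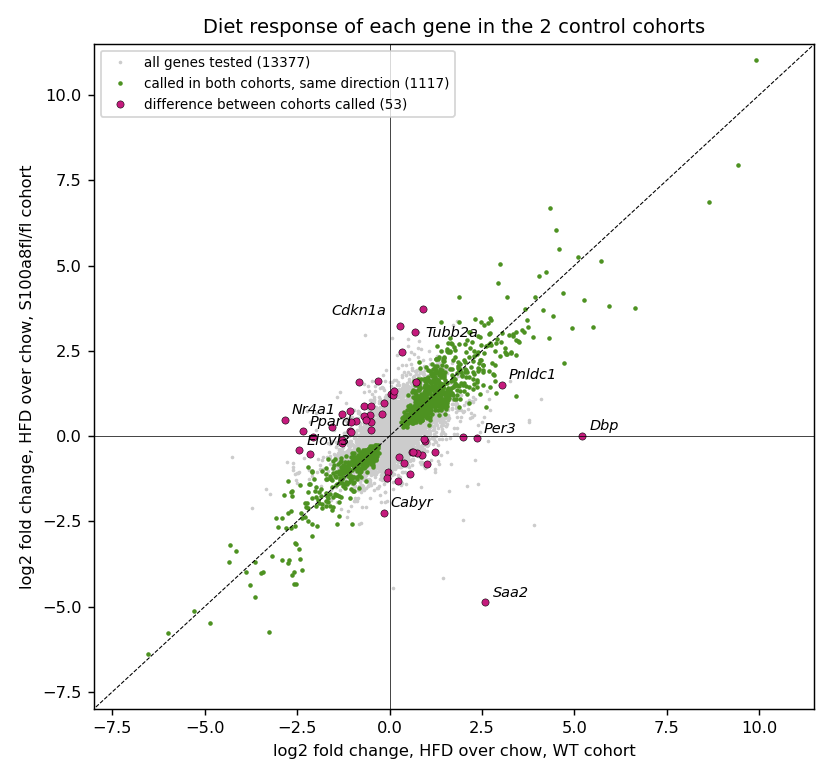
Diet response (log2 HFD over chow) of the 13377 genes in the WT cohort (horizontal) against the S100a8fl/fl cohort (vertical), with the 53 genes of called difference and the 1117 repeated genes marked. Most genes lie along the diagonal (r = 0.75), and Dbp lies at 5.21 and 0.01.

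The chow groups were the ones that stood apart among the 53 genes. As a description of levels, all chow WT libraries lay outside the other 3 groups for 33 of the 53 genes, above them for 21 and below for 12. All chow S100a8fl/fl libraries lay outside the other 3 groups for 27, above for 10 and below for 17. Both chow groups were apart, on opposite sides, for 10 of these. HFD WT stood apart for 2 genes, Insig2 and Ggt6, HFD S100a8fl/fl for 1, Dpt, and no group for 2, Cyp4a10 and Pdlim1. Over all genes the same measure set chow WT apart for 4.18%, chow S100a8fl/fl for 5.23%, HFD WT for 2.21% and HFD S100a8fl/fl for 1.75%. The called genes were chosen on the same contrast, so their shares are a description. Ggt6 and Pdlim1 are named here after their values were seen.

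Genes with a WT response and no call in the S100a8fl/fl cohort included metabolic regulators that were high in chow WT livers. Ppard (chr17:28232700-28301474, plus strand, GRCm38), the nuclear receptor PPARδ, measured 10.4, 8.52, 7.34, 9.43 and 9.88 CPM in HFD WT livers, against 57.7, 38.7 and 43.2 CPM in chow WT livers. It measured 8.03, 8.74, 9.47, 11.2 and 11.1 CPM in HFD S100a8fl/fl livers, against 9.63, 6.17, 11.1 and 8.17 CPM in chow S100a8fl/fl livers. The 3 chow WT livers were above every other liver, and the remaining 14 spanned 6.17 to 11.2 CPM. The responses were -2.35 ± 0.18 (adjusted p = 2.53e-07) and 0.14 ± 0.17 (adjusted p = 0.585), a difference of -2.50 ± 0.25 (95% interval -3.02 to -1.97, adjusted p = 5.63e-05) that was called in every leave-one-out fit and with the block.

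Irs2, the insulin receptor substrate that liver makes when insulin is low, measured 11.6, 10.6, 13.8, 9.90 and 9.85 CPM in HFD WT livers, against 31.5, 45.3 and 64.1 CPM in chow WT livers. It measured 6.30, 8.13, 10.4, 11.2 and 7.11 CPM in HFD S100a8fl/fl livers, against 11.2, 10.7, 5.08 and 8.17 CPM in chow S100a8fl/fl livers. Only the chow WT livers stood out, and the difference was -2.04 ± 0.34 (adjusted p = 0.0163, or 0.1 with the block). Elovl3, a male-biased elongase of very long chain fatty acids with a daily rhythm in mouse liver, measured 181, 98.8, 188, 74.4 and 96.0 CPM in HFD WT livers, against 637, 812 and 638 CPM in chow WT livers. It measured 44.7, 55.9, 76.3, 49.4 and 50.9 CPM in HFD S100a8fl/fl livers, against 77.8, 81.7, 67.8 and 67.3 CPM in chow S100a8fl/fl livers. Chow WT livers were again the highest, with a difference of -2.04 ± 0.34 (adjusted p = 0.0163, or 0.0564 with the block).

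Nr4a1, the orphan receptor NUR77 and an immediate early gene, measured 3.86, 4.47, 5.76, 4.48 and 8.92 CPM in HFD WT livers, against 41.4, 36.3 and 40.3 CPM in chow WT livers. It measured 5.79, 6.61, 7.81, 9.51 and 15.01 CPM in HFD S100a8fl/fl livers, against 3.95, 2.22, 2.95 and 16.4 CPM in chow S100a8fl/fl livers. The chow WT livers were above all others, and chow S100a8fl/fl library 5 was the highest of its own group. The difference was -3.32 ± 0.65 (adjusted p = 0.0311), not called in 10 of the 17 fits that left out a library (adjusted p up to 0.0662, without chow S100a8fl/fl 4), nor with all 34 libraries (adjusted p = 0.0933), and -4.39 without chow S100a8fl/fl library 5 (adjusted p = 7.38e-05).

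Dnmt3b, a de novo DNA methyltransferase, measured 1.81, 2.38, 2.36, 2.33 and 1.99 CPM in HFD WT livers and 7.36, 3.72 and 4.71 CPM in chow WT livers, with responses of -1.28 ± 0.26 and 0.66 ± 0.29 and a difference of -1.94 ± 0.39 (adjusted p = 0.0347). Rims3, a synaptic vesicle scaffold at low level in liver, measured 1.74, 3.17, 3.21, 2.37 and 1.53 CPM in HFD WT livers and 0.841, 0.515 and 0.428 CPM in chow WT livers, with responses of 1.99 ± 0.33 and -0.03 ± 0.27 and a difference of 2.01 ± 0.43 (adjusted p = 0.0449). Chow WT livers were the highest for Dnmt3b and the lowest for Rims3. Rims3 was also not called by limma-voom (adjusted p = 0.0651). Neither difference was called with the block (adjusted p = 0.133 and 0.123). Dnmt3b was not called in 11 of the 17 fits that left out a library (adjusted p up to 0.106, without chow WT 1) and Rims3 was not called in 15 of the 17 fits that left out a library (adjusted p up to 0.127, without chow WT 3). The xenobiotic P450 gene Cyp2a5, whose reads can be shared with the near-identical Cyp2a4, had a WT response of 0.88 ± 0.22 and an S100a8fl/fl response of -0.55 ± 0.20, with a difference of 1.42 ± 0.30 (adjusted p = 0.0422, or 0.118 with the block), not called in 14 of the 17 fits that left out a library (adjusted p up to 0.125, without chow WT 3).

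**Figure D3:**
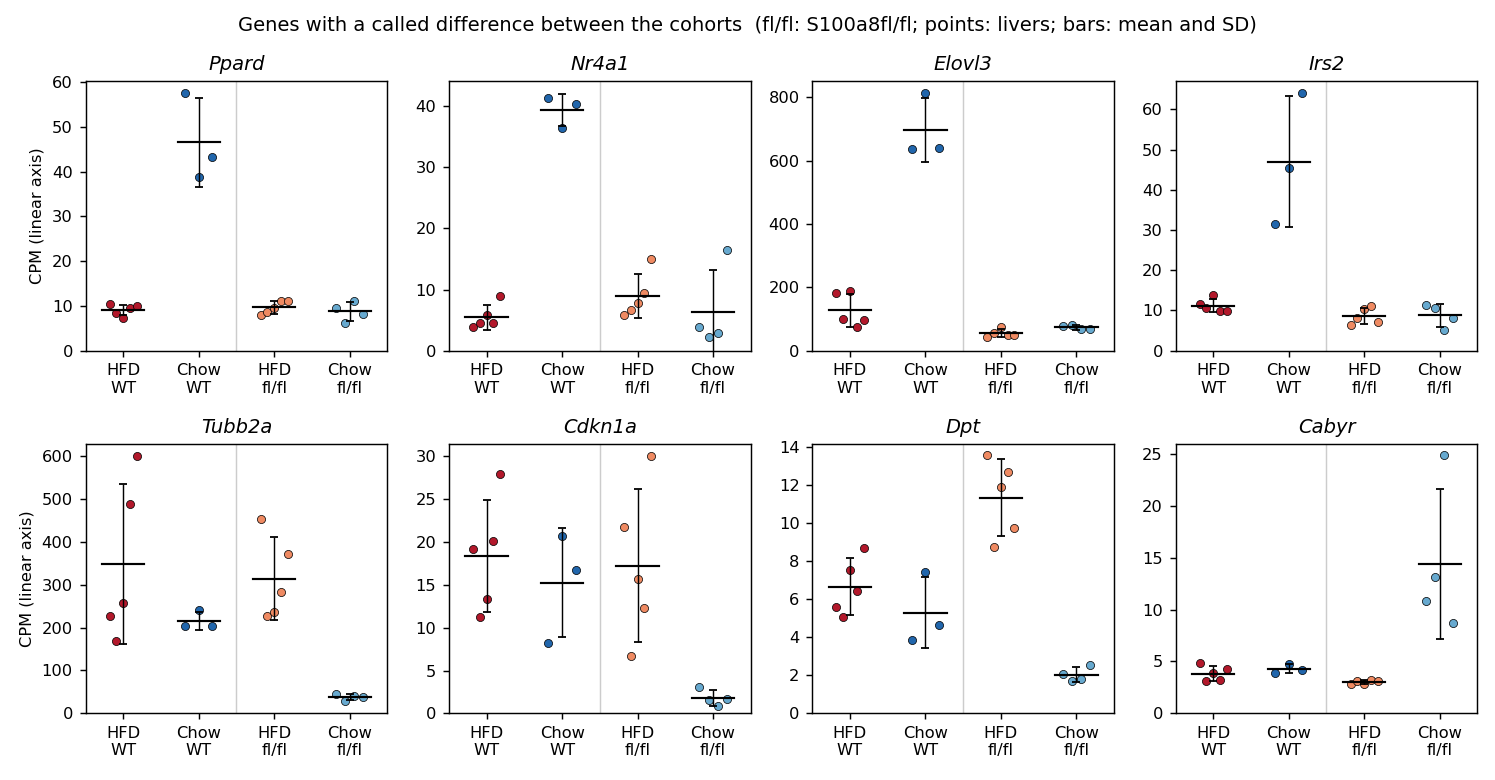
TMM-scaled CPM (linear axes from 0) of 8 genes with a called difference, 1 point a liver, with lines at the mean with SD, in HFD and chow WT livers and in HFD and chow S100a8fl/fl livers. In the upper panels, Ppard, Nr4a1, Elovl3 and Irs2, the chow WT livers are the highest, and in the lower panels, Tubb2a, Cdkn1a, Dpt and Cabyr, the chow S100a8fl/fl livers are apart from the rest.

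Another set of genes responded in the S100a8fl/fl cohort and passed no test in the WT cohort. Tubb2a, a β-tubulin, measured 226, 169, 258, 487 and 599 CPM in HFD WT livers, against 204, 240.5 and 203 CPM in chow WT livers. It measured 453, 226, 237, 283 and 370.4 CPM in HFD S100a8fl/fl livers, against 45.2, 28.1, 39.4 and 38.4 CPM in chow S100a8fl/fl livers. The 4 chow S100a8fl/fl livers were below all the rest, while the WT diets overlapped. The responses were 0.69 ± 0.34 (adjusted p = 0.176) and 3.05 ± 0.34 (adjusted p = 1.15e-05), a difference of -2.37 ± 0.45 (adjusted p = 0.0251) that was not called in 5 of the 17 fits that left out a library (adjusted p up to 0.0527, without chow S100a8fl/fl 4).

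Cdkn1a, the p21 inhibitor of cyclin-dependent kinases, measured 19.2, 11.3, 13.3, 20.1 and 27.9 CPM in HFD WT livers, against 8.24, 20.7 and 16.7 CPM in chow WT livers. It measured 21.7, 6.65, 15.6, 12.2 and 29.97 CPM in HFD S100a8fl/fl livers, against 3.12, 1.56, 0.864 and 1.72 CPM in chow S100a8fl/fl livers. Here too only the chow S100a8fl/fl livers were apart, below all others. The difference was -2.97 ± 0.60 (adjusted p = 0.0363, or 0.0553 with the block and 0.127 by limma-voom), not called in 12 of the 17 fits that left out a library (adjusted p up to 0.0842, without chow WT 2).

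Dpt, which encodes the matrix protein dermatopontin, measured 5.60, 5.06, 7.52, 6.43 and 8.71 CPM in HFD WT livers, against 3.87, 7.41 and 4.62 CPM in chow WT livers. It measured 13.6, 8.74, 11.9, 12.7 and 9.76 CPM in HFD S100a8fl/fl livers, against 2.08, 1.68, 1.83 and 2.56 CPM in chow S100a8fl/fl livers. HFD S100a8fl/fl livers were the highest of all and chow S100a8fl/fl livers the lowest, with the WT livers between them. The difference was -2.14 ± 0.32 (95% interval -2.81 to -1.46, adjusted p = 0.00571) and was called in every leave-one-out fit and with the block. Stellate cell markers also moved: 5 of 8 were higher on HFD in the WT cohort and 8 of 8 in the S100a8fl/fl cohort. Of their differences 0 were called by edgeR and 1 by DESeq2, and 5 of 8 had an unadjusted p under 0.05, against 1322 of all 13377 genes. The 8 markers summed to 449 to 576 CPM in HFD WT, 295 to 397 CPM in chow WT, 391 to 564 CPM in HFD S100a8fl/fl and 114 to 292 CPM in chow S100a8fl/fl livers. Their part in the Dpt result was not tested.

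Pdk4, the kinase that shuts off pyruvate dehydrogenase in fasting, measured 13.5, 14.1, 21.2, 23.6 and 26.1 CPM in HFD WT livers, against 35.0, 39.5 and 30.6 CPM in chow WT livers. It measured 17.3, 15.9, 12.2, 12.6 and 26.7 CPM in HFD S100a8fl/fl livers, against 10.5, 2.82, 5.24 and 3.99 CPM in chow S100a8fl/fl livers. The diets did not overlap in either cohort, and they were ordered in opposite ways. The responses were -0.83 ± 0.32 (adjusted p = 0.0873) and 1.58 ± 0.33 (adjusted p = 0.00247), a difference of -2.42 ± 0.45 (adjusted p = 0.0241), not called without chow S100a8fl/fl 4 (adjusted p = 0.056) or chow WT 1 (adjusted p = 0.0518).

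Cabyr, Tbx3os1 and Usp2 were highest in chow S100a8fl/fl livers. Cabyr, a calcium-binding protein known from sperm, measured 2.83, 3.09, 2.87, 3.23 and 3.08 CPM in HFD S100a8fl/fl livers, against 10.8, 13.2, 24.9 and 8.71 CPM in chow S100a8fl/fl livers, and 3.10 to 4.83 CPM in all 8 WT livers. Its difference was 2.09 ± 0.36 (adjusted p = 0.0187, or 0.0656 with the block), not called without chow WT 1 (adjusted p = 0.0518). Tbx3os1, an antisense RNA of Tbx3, measured 4.94, 6.65, 7.54, 7.13 and 4.64 CPM in HFD S100a8fl/fl livers, against 14.9, 13.7, 14.1 and 18.6 CPM in chow S100a8fl/fl livers, with a difference of 1.53 ± 0.29 (adjusted p = 0.0241, or 0.0572 with the block), not called without chow WT 3 (adjusted p = 0.0722) or chow WT 2 (adjusted p = 0.0619). The strand setting of the counting is not given in the sources used here, so reads of Tbx3os1 and of Tbx3 may not be separable.

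Usp2, a deubiquitinase with a strong daily rhythm in mouse liver, measured 5.62, 3.75, 4.29, 6.09 and 5.54 CPM in HFD WT livers, against 1.98, 2.93 and 5.47 CPM in chow WT livers. It measured 49.9, 65.6, 42.9, 57.8 and 81.9 CPM in HFD S100a8fl/fl livers, against 121, 135, 136 and 124 CPM in chow S100a8fl/fl livers. The chow S100a8fl/fl livers were the highest and the highest WT liver was at 6.09 CPM. The difference was 1.68 ± 0.34 (adjusted p = 0.0406, or 0.123 with the block), not called in 11 of the 17 fits that left out a library (adjusted p up to 0.119, without chow WT 1).

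Among genes called in both cohorts, Cyp4a10 ran in opposite directions and Pnldc1 and Insig2 in the same one. Cyp4a10, a PPARα-driven fatty acid ω-hydroxylase with close copies in the Cyp4a cluster, measured 308, 345, 238, 302 and 229.5 CPM in HFD WT livers, against 179, 111 and 132 CPM in chow WT livers. It measured 180.3, 173, 242, 226 and 243 CPM in HFD S100a8fl/fl livers, against 545, 419, 179 and 369.6 CPM in chow S100a8fl/fl livers. HFD was above chow without overlap in the WT cohort, and chow S100a8fl/fl library 4 overlapped with HFD in the other. The responses were 1.02 ± 0.27 (adjusted p = 0.0153) and -0.83 ± 0.23 (adjusted p = 0.0186), a difference of 1.85 ± 0.35 (adjusted p = 0.0267). With the block these adjusted p were 0.0534, 0.0693 and 0.102, and the difference was not called in 5 of the 17 fits that left out a library (adjusted p up to 0.0725, without chow WT 3). The WT response was not called without chow WT 2 (adjusted p = 0.0728), and the S100a8fl/fl response was not called without chow S100a8fl/fl 1 (adjusted p = 0.0816) and not by limma-voom (adjusted p = 0.0966).

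Pnldc1, a 3′ exonuclease of the PARN family, measured 13.4, 13.0, 12.1, 18.8 and 16.2 CPM in HFD WT livers, against 1.98, 1.15 and 2.24 CPM in chow WT livers. It measured 22.9, 23.6, 19.9, 19.3 and 17.9 CPM in HFD S100a8fl/fl livers, against 6.66, 8.51, 7.88 and 6.25 CPM in chow S100a8fl/fl livers. HFD livers were above chow livers in both cohorts, by 3.04 ± 0.22 and 1.501 ± 0.18 log2 units, and the difference of 1.53 ± 0.27 was called (adjusted p = 0.0189, or 0.0748 with the block and 0.125 with all 34 libraries). Insig2, which retains the SREBP cleavage complex in the endoplasmic reticulum, measured 333, 269, 317, 286 and 334 CPM in HFD S100a8fl/fl livers, against 102, 115, 101 and 91.4 CPM in chow S100a8fl/fl livers. It rose by 0.71 ± 0.14 in the WT cohort and 1.59 ± 0.13 in the S100a8fl/fl cohort, a difference of -0.88 ± 0.18 (adjusted p = 0.0422, or 0.19 with the block and 0.0644 with all 34 libraries), not called in 12 of the 17 fits that left out a library (adjusted p up to 0.0914, without chow WT 2).

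Other genes with a called difference are given here and were chosen after their values were seen. Lgalsl, a galectin-like protein, and Klhl21, a substrate adaptor of the CUL3 ubiquitin ligase, ran in opposite directions in the 2 cohorts, although the WT response of Lgalsl was not called with the block (adjusted p = 0.0835) or without chow WT 3 (adjusted p = 0.0663). Lgalsl measured 32.5, 26.3, 32.3, 29.99 and 30.3 CPM in HFD WT livers, against 40.9, 41.5 and 47.2 CPM in chow WT livers. It measured 14.7, 16.3, 14.95, 16.3 and 21.6 CPM in HFD S100a8fl/fl livers, against 11.1, 7.73, 8.64 and 8.51 CPM in chow S100a8fl/fl livers. Chow WT livers were the highest and chow S100a8fl/fl livers the lowest, with responses of -0.51 ± 0.14 and 0.90 ± 0.13 and a difference of -1.41 ± 0.19 (adjusted p = 0.00185). Klhl21 had the reverse order, at 41.9, 51.5, 41.6, 40.6 and 34.7 CPM in HFD WT livers and 25.8, 25.8 and 29.0 CPM in chow WT livers, and at 46.6, 43.7, 52.9, 49.6 and 43.0 CPM in HFD S100a8fl/fl livers and 61.2, 67.4, 64.8 and 65.4 CPM in chow S100a8fl/fl livers. Its difference was 1.10 ± 0.16 (adjusted p = 0.00388). The carnitine transporter Slc22a5 and the tight junction gene Cldn1 also had both chow groups apart on opposite sides, with differences of 1.09 ± 0.21 and -1.16 ± 0.20 (adjusted p = 0.0267 and 0.0189).

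Chka and Slc44a1, a choline kinase and a choline transporter, and Ddc, the aromatic amino acid decarboxylase, were highest in chow WT livers. Chka measured 65.5, 93.2, 52.3, 75.4 and 78.3 CPM in HFD WT livers, against 184, 294 and 164 CPM in chow WT livers. It measured 36.8, 20.96, 27.2, 20.8 and 34.9 CPM in HFD S100a8fl/fl livers, against 21.7, 20.7, 25.9 and 24.5 CPM in chow S100a8fl/fl livers. The responses of Chka were -1.55 ± 0.22 and 0.28 ± 0.21, and the differences of Chka, Slc44a1 and Ddc were -1.83 ± 0.30, -0.70 ± 0.15 and -1.24 ± 0.20 (adjusted p = 0.0149, 0.0434 and 0.0149). Gldc, the glycine decarboxylase, had responses of 0.04 ± 0.16 in the WT cohort and 1.22 ± 0.15 in the S100a8fl/fl cohort, with a difference of -1.18 ± 0.21 (adjusted p = 0.0207). Sox9, which marks cholangiocytes, measured 8.04, 5.48, 5.11, 6.47 and 9.17 CPM in HFD WT livers, against 29.3, 37.6 and 23.9 CPM in chow WT livers, and its difference was -1.62 ± 0.34 (adjusted p = 0.0451). Of the 5 measured cholangiocyte markers it was the 1 with a called difference or response. The 5 summed to 36.0 to 151 CPM in HFD WT, 61.7 to 110.0 CPM in chow WT, 64.2 to 185 CPM in HFD S100a8fl/fl and 52.5 to 99.3 CPM in chow S100a8fl/fl livers. Among these genes the differences of Lgalsl, Klhl21, Chka, Ddc and Cldn1 were called in all 17 leave-one-out fits, those of Gldc and Slc22a5 in 15 and 14 of them, and those of Slc44a1 and Sox9 in 3 each. With the block, Lgalsl, Klhl21, Chka and Slc22a5 were called, and the adjusted p of the other 5 was 0.0555 to 0.149.

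Acute phase transcripts, made by hepatocytes under interleukin-6 signalling, were highest in 1 chow S100a8fl/fl library. Saa2, whose reads can be shared with Saa1, measured 81.1, 81.9, 166, 62.7 and 125 CPM in HFD WT livers, against 21.5, 20.1 and 9.66 CPM in chow WT livers. It measured 149.9, 344, 121, 172 and 147 CPM in HFD S100a8fl/fl livers, against 227, 20131, 1418 and 198 CPM in chow S100a8fl/fl livers, with 20131 CPM in library 2. The difference was 7.47 ± 1.54 (adjusted p = 0.0416, or 0.131 with the block), and 4.31 without chow S100a8fl/fl library 2 (adjusted p = 0.0307). It was also not called in 12 of the 17 fits that left out a library (adjusted p up to 0.127, without chow WT 3). In the same library Lcn2 reached 1743 CPM, Saa3 732 CPM and the metallothionein Mt1 598 CPM, each the highest of the 17 livers. Of 24 acute phase genes, 13 were lower on HFD in the S100a8fl/fl cohort and 0 higher, and without that library 6 were lower and 3 higher. In the WT cohort 3 were higher and 3 lower (8.32% and 7.0% of all genes), or 6 and 4 without that library, and 1 of 24 differences was called in either fit. Lcn2 (difference 6.50 ± 1.55, adjusted p = 0.0827) and Saa1 (difference 5.60 ± 1.25, adjusted p = 0.0614) missed the threshold.

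Immediate early genes, the first transcripts made after a stimulus, had 1 called difference, that of Nr4a1 given above. Egr1 measured 8.85, 9.14, 25.5, 12.7 and 12.2 CPM in HFD WT livers, against 94.6, 62.7 and 38.0 CPM in chow WT livers. It measured 41.2, 75.8, 107, 132 and 115 CPM in HFD S100a8fl/fl livers, against 18.3, 16.8, 15.7 and 176 CPM in chow S100a8fl/fl livers. The WT diets did not overlap, and in the S100a8fl/fl cohort chow library 5 was the highest of all 17 livers. The difference of -2.98 ± 0.90 was not called (adjusted p = 0.197), but was -4.72 without chow S100a8fl/fl library 5 (adjusted p = 0.000321).

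Of 16 measured immediate early genes, 6 were lower and 1, Klf6, was higher on HFD in the WT cohort, 2, Klf6 and Myc, were higher in the S100a8fl/fl cohort, and 1 difference, of Nr4a1, was called. Without chow S100a8fl/fl library 5, 8 were lower in the WT cohort, 10 were higher in the S100a8fl/fl cohort and 8 differences were called, all negative. Without the library labelled HFD WT 1, 4 were lower in the WT cohort and 0 differences were called. The AP-1 gene Junb and the mRNA decay factor Zfp36 had differences of -1.28 ± 0.40 (adjusted p = 0.214) and -1.06 ± 0.39 (adjusted p = 0.334), and of -1.67 (adjusted p = 0.0362) and -1.58 (adjusted p = 0.00848) without chow S100a8fl/fl library 5. The WT responses of Egr1 and Zfp36 were not called with the block (adjusted p = 0.0595 and 0.107). That of Egr1 was not called in 6 of the 17 fits that left out a library (adjusted p up to 0.0894, without chow WT 1), and that of Zfp36 was not called in 11 of the 17 fits that left out a library (adjusted p up to 0.202, without chow WT 1).

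Other rhythmic or nutrient-driven lists also held called differences, against 0.396% of all genes. Of 20 rhythmic liver outputs, 5 were higher and 2 lower on HFD in the WT cohort, 4 higher and 5 lower in the S100a8fl/fl cohort, and 3 differences were called (15% of the list, Usp2 positive, Insig2 and Elovl3 negative), 0 of them with the block. DESeq2 called 9 and limma-voom 7 of these differences, and 11 of 20 had an unadjusted p under 0.05, against 1322 of all 13377 genes. Mfsd2a, the lysophosphatidylcholine transporter, measured 158, 127, 87.0, 155 and 175 CPM in HFD WT livers, against 5.58, 7.61 and 26.5 CPM in chow WT livers, and 236, 315, 211, 229 and 380.4 CPM in HFD S100a8fl/fl livers, against 137, 92.2, 128 and 124 CPM in chow S100a8fl/fl livers. It was higher on HFD in both cohorts, and its difference of 2.23 ± 0.50 missed the threshold (adjusted p = 0.0632). Its S100a8fl/fl response was not called without chow S100a8fl/fl 2 (adjusted p = 0.0582). Of 22 fasting and PPARα genes, 9 were higher and 2 lower in the WT cohort, 4 higher and 5 lower in the S100a8fl/fl cohort, and 3 differences were called (13.6% of the list, Cyp4a10 positive, Irs2 and Pdk4 negative). DESeq2 called 8 and limma-voom 6 of these differences, and 11 of 22 had an unadjusted p under 0.05, against 1322 of all 13377 genes. Of 11 glucocorticoid targets, 1 was lower in the WT cohort (Tat, 7.0% of all genes). In the S100a8fl/fl cohort 1 was higher (Cdkn1a, 11.2% of all genes) and 3 lower (Tsc22d3, Mt1 and Klf9, 9.46% of all genes), and the Cdkn1a difference was called. The S100a8fl/fl response of Mt1 was not called without chow S100a8fl/fl library 2 (adjusted p = 0.174), with the block (adjusted p = 0.177) or by limma-voom (adjusted p = 0.0593). Its difference, not called in the main fit, was called without chow S100a8fl/fl library 2 (2.75, adjusted p = 0.0487) and without chow S100a8fl/fl library 5 (4.69, adjusted p = 0.0451). Of 16 heat shock transcripts, 2 were lower in each cohort, against 7.0% of all genes in the WT cohort and 9.46% in the S100a8fl/fl cohort. These were Hsp90aa1 and Stip1 in the WT cohort and Hspa1a and Hspa1b, which are near-identical copies, in the S100a8fl/fl cohort. There were 0 called differences in the 16 genes by edgeR, DESeq2 or limma-voom (1 at an unadjusted p under 0.05). Hsp90aa1 in the WT cohort was not called without chow WT 2 (adjusted p = 0.119), chow WT 3 (adjusted p = 0.0548) or HFD WT 4 (adjusted p = 0.0509), nor with the block (adjusted p = 0.151). Stip1 in the WT cohort was not called in 5 of the 17 fits that left out a library (adjusted p up to 0.126, without chow WT 3). Hspa1a in the S100a8fl/fl cohort was not called in 6 of the 17 fits that left out a library (adjusted p up to 0.211, without chow S100a8fl/fl 5). With each cohort fitted alone the adjusted p were 0.0848 for Hsp90aa1, 0.0706 for Stip1 and 0.0540 for Hspa1a.

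Sex-biased liver genes were among the repeated responses. All 17 livers were male, and on HFD 6 of 11 transcripts that are normally female-biased were higher and 12 of 14 male-biased ones lower in both cohorts. Cyp2b9, a female-biased P450 with a near-identical copy in Cyp2b13, measured 268, 269, 258, 332 and 262 CPM in HFD WT livers, against 0.235, 0.594 and 1.33 CPM in chow WT livers. It measured 249, 292, 266, 321 and 249 CPM in HFD S100a8fl/fl livers, against 0.989, 2.52, 0.610 and 5.36 CPM in chow S100a8fl/fl livers. The HFD values of the 2 cohorts overlapped, and every chow liver was at 5.36 CPM or less. The log2 fold changes were 8.66 ± 0.62 and 6.85 ± 0.49 (adjusted p = 2.31e-07 and 1.58e-07), and the difference of 1.81 ± 0.66 was not called (95% interval 0.43 to 3.18, adjusted p = 0.324).

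Hao2, a peroxisomal hydroxy acid oxidase, rose by 5.73 ± 0.65 and 5.14 ± 0.58 log2 units, and the peroxisomal transporter Abcd2 by 3.02 ± 0.37 and 2.77 ± 0.33. Of 11 measured female-biased genes, 7 were higher in the WT cohort and 6 in the S100a8fl/fl cohort, 6 in both, and Cyp2b10 was lower in both. Slc22a29, an organic anion transporter, rose by 4.69 ± 0.35 and 4.21 ± 0.31.

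Hsd3b5, a male-specific hydroxysteroid dehydrogenase, measured 10.0, 1.08, 2.23, 0.169 and 0.142 CPM in HFD WT livers, against 298, 292 and 207 CPM in chow WT livers. It measured 1.56, 1.52, 3.503, 2.34 and 2.34 CPM in HFD S100a8fl/fl livers, against 146, 176, 234 and 199 CPM in chow S100a8fl/fl livers. Every HFD liver was below every chow liver, with the library labelled HFD WT 1 the highest of the HFD livers. The log2 fold changes were -6.53 ± 0.76 and -6.39 ± 0.75, and the difference was -0.14 ± 0.96 (95% interval -2.16 to 1.88). Of 14 measured male-biased genes, 14 fell in the WT cohort and 12 in the S100a8fl/fl cohort, 12 in both, with Elovl3 the one called difference. Selenbp2, Cyp7b1 and the bile acid transporter Slco1a1 also fell in both cohorts, with differences of -0.63 ± 0.56, 0.06 ± 0.40 and 1.40 ± 0.89, of which only that of Slco1a1 was called with the block (adjusted p = 0.00835).

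The major urinary proteins Mup1, Mup7, Mup11 and Mup12, Serpina1e and Cyp4a12b also fell in both cohorts, by 3.64 log2 units or more, and belong to clusters of near-identical copies among which reads may be split. Growth hormone acts on this sex-biased programme, and of 14 genes of its axis 1 was higher and 3 lower in both cohorts (5.05% and 3.3% of all genes). Igf1 had responses of -0.50 ± 0.15 and -0.81 ± 0.14, and its binding partner Igfals of -0.70 ± 0.20 and -0.93 ± 0.19. With the block neither was called in the WT cohort (adjusted p = 0.225 and 0.163). There Igf1 was not called in 5 of the 17 fits that left out a library (adjusted p up to 0.0972, without chow WT 2), and Igfals was not called in 4 of the 17 fits that left out a library (adjusted p up to 0.109, without chow WT 3).

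**Figure D4:**
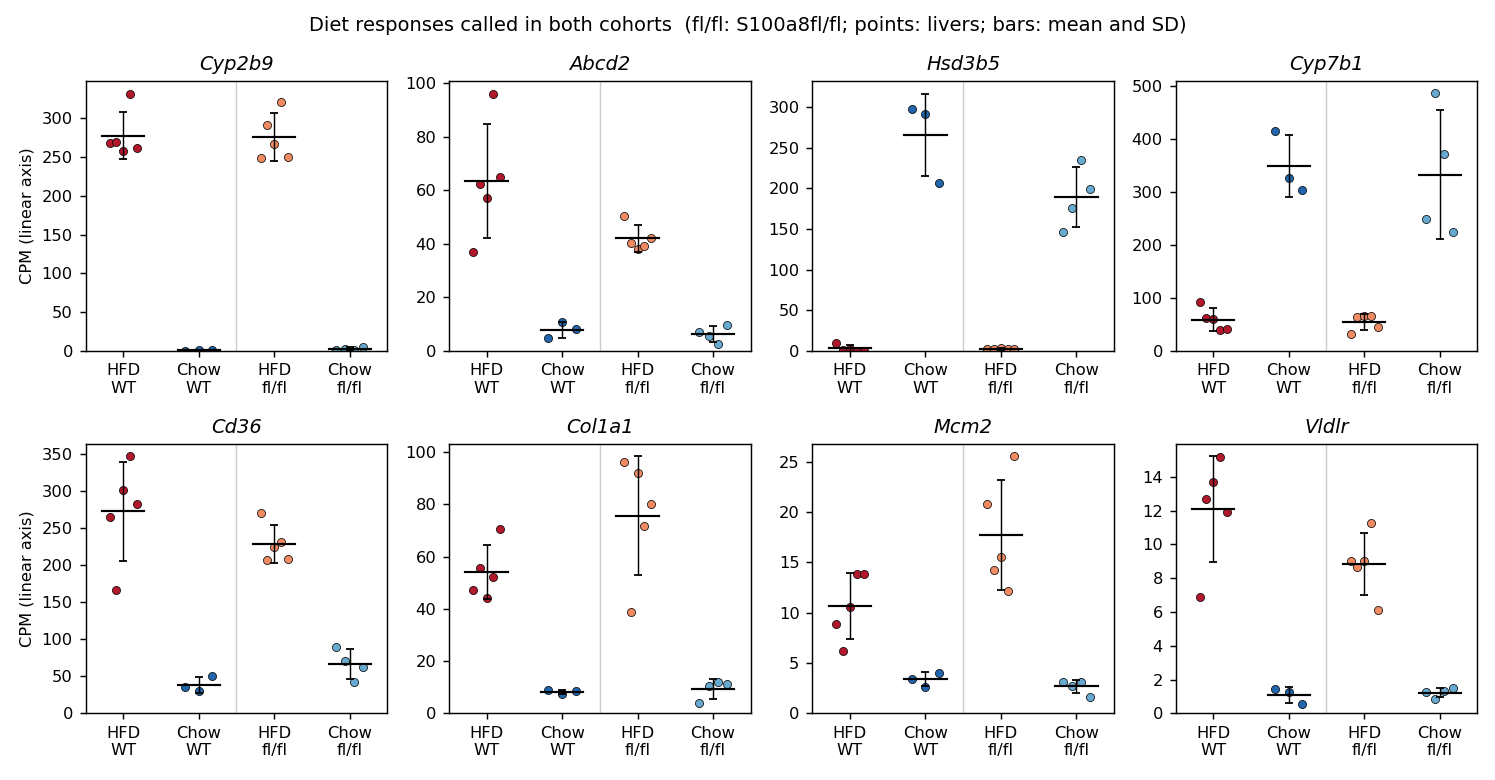
TMM-scaled CPM (linear axes from 0) of 8 genes called in the same direction in both cohorts, 1 point a liver, with lines at the mean with SD, in HFD and chow WT livers and in HFD and chow S100a8fl/fl livers. Cyp2b9, Abcd2, Cd36, Col1a1, Mcm2 and Vldlr are higher and Hsd3b5 and Cyp7b1 lower on HFD in every panel pair, with no HFD liver overlapping a chow liver of its cohort.

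Of 21 lipid uptake and storage genes, 10 rose in both cohorts. Cd36, the fatty acid translocase, measured 265, 167, 301, 348 and 283 CPM in HFD WT livers, against 35.5, 29.6 and 50.2 CPM in chow WT livers. It measured 270.2, 207, 224, 232 and 209 CPM in HFD S100a8fl/fl livers, against 90.2, 70.6, 42.3 and 62.6 CPM in chow S100a8fl/fl livers. The diets did not overlap in either cohort. The responses were 2.83 ± 0.26 and 1.78 ± 0.22 (adjusted p = 2.26e-06 and 3.69e-05), and the difference of 1.04 ± 0.32 was not called (95% interval 0.38 to 1.71, adjusted p = 0.203). Vldlr, a lipoprotein receptor, rose by 3.43 ± 0.32 and 2.82 ± 0.29, and the lipid droplet coats Plin2 and Plin4 by 0.86 ± 0.14 and 2.89 ± 0.33 in the WT cohort and 1.06 ± 0.13 and 1.25 ± 0.27 in the S100a8fl/fl cohort. In this list 12 genes rose and 0 fell in the WT cohort, and 11 rose and 2, the fatty acid transport proteins Slc27a2 and Slc27a5, fell in the S100a8fl/fl cohort. No difference was called by edgeR (0 of 21), and 3 were called by DESeq2 and 2 by limma-voom. At an unadjusted p under 0.05 there were 8 of 21, against 1322 of all 13377 genes. Plin4 had a difference of 1.64 ± 0.40 (adjusted p = 0.0919).

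Fatty acid synthesis genes had no called difference between the cohorts by edgeR or limma-voom, and 2 were called by DESeq2. At an unadjusted p under 0.05 there were 6 of 20, against 1322 of all 13377 genes. Elovl5 and Fads2, which elongate and desaturate polyunsaturated fatty acids, rose by 1.77 ± 0.17 and 1.65 ± 0.21 in the WT cohort and 2.53 ± 0.16 and 1.63 ± 0.19 in the S100a8fl/fl cohort. Scd1, the stearoyl-CoA desaturase, measured 10686, 7079.8, 10161, 15355 and 15578 CPM in HFD WT livers, against 7229, 6539.9 and 10998 CPM in chow WT livers. It measured 13848, 13463, 10714, 9884 and 14136 CPM in HFD S100a8fl/fl livers, against 2592, 2222, 3319.8 and 5266 CPM in chow S100a8fl/fl livers. Chow S100a8fl/fl livers were below all others, yet the difference of -1.38 ± 0.39 was not called (adjusted p = 0.157). Of 20 genes, 3 were higher and 1 lower in the WT cohort and 9 higher and 1 lower in the S100a8fl/fl cohort, or 6 higher without chow S100a8fl/fl library 2. Fasn, the fatty acid synthase, had responses of 0.38 ± 0.53 and 0.80 ± 0.49, and its activator Srebf1 of -0.44 ± 0.24 and 0.63 ± 0.23, none of them called. Of 24 cholesterol synthesis genes, 1 was lower in the WT cohort (Insig1), or 12 with the block, and 1 was higher (Sc5d) and 2 lower (Tm7sf2 and Stard4) in the S100a8fl/fl cohort. The shares of all genes were 7.0% lower in the WT cohort, and 11.2% higher and 9.46% lower in the S100a8fl/fl cohort. Insig1 in the WT cohort was not called in 6 of the 17 fits that left out a library (adjusted p up to 0.093, without chow WT 2). In the S100a8fl/fl cohort Sc5d was not called in 4 of the 17 fits that left out a library (adjusted p up to 0.0771, without chow S100a8fl/fl 1). Stard4 there was not called in 11 of the 17 fits that left out a library (adjusted p up to 0.15, without chow S100a8fl/fl 2), nor with the block (adjusted p = 0.0862). With each cohort fitted alone, Insig1 (adjusted p = 0.0615) and Stard4 (adjusted p = 0.0522) also missed the threshold.

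Most genes of the matrix list rose in both cohorts. Dpt, the matrix gene given above with a called difference, is not in this list. Col1a1, a chain of type I collagen, measured 47.3, 55.6, 44.2, 52.1 and 70.7 CPM in HFD WT livers, against 9.04, 7.29 and 8.42 CPM in chow WT livers. It measured 96.2, 38.9, 91.8, 71.6 and 80.1 CPM in HFD S100a8fl/fl livers, against 3.80, 10.4, 11.9 and 11.2 CPM in chow S100a8fl/fl livers. No HFD liver overlapped with a chow liver, and the responses were 2.71 ± 0.33 and 3.02 ± 0.30, with a difference of -0.31 ± 0.40 (95% interval -1.16 to 0.53). Of 40 matrix genes, 26 rose in the WT cohort and 32 in the S100a8fl/fl cohort, and all 26 rose in both, against 5.05% of all genes. The list's median was 1.18 in the WT cohort and 1.75 in the S100a8fl/fl cohort, 0 of 40 differences were called by edgeR and their median was -0.63. At an unadjusted p under 0.05 there were 18 of 40, against 1322 of all 13377 genes, and DESeq2 called 2 and limma-voom 1. Col3a1, Col14a1 and Col5a1 had differences of -0.88 ± 0.32, -0.95 ± 0.26 and -0.79 ± 0.24 (adjusted p = 0.324, 0.156 and 0.211). The stellate cell markers given above moved with these genes, and their part was not tested.

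Macrophage and inflammatory transcripts repeated in part. Trem2, a receptor of lipid-associated macrophages, measured 1.97, 2.58, 1.86, 2.50 and 5.69 CPM in HFD WT livers, against 0.235, 0.832 and 0.524 CPM in chow WT livers. It measured 7.27, 2.76, 1.98, 5.05 and 4.68 CPM in HFD S100a8fl/fl livers, against 1.04, 1.02, 0.763 and 0.886 CPM in chow S100a8fl/fl livers. HFD livers were above chow livers in both cohorts, by 2.46 ± 0.51 and 2.23 ± 0.44, and Mmp12, a macrophage elastase, rose by 3.35 ± 0.65 and 3.004 ± 0.55. Gpnmb, another gene of this macrophage state, had responses of 4.11 ± 0.62 (adjusted p = 0.000304) and 1.09 ± 0.41 (adjusted p = 0.0659), and a difference of 3.02 ± 0.74 that was not called (adjusted p = 0.0923). Of 17 such genes 9 rose in each cohort, 7 of them in both, and 1, Fabp5, fell in the WT cohort.

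Ccl2, the monocyte chemoattractant, measured 2.11, 1.99, 2.94, 3.17 and 2.91 CPM in HFD WT livers, against 0.605, 0.951 and 0.571 CPM in chow WT livers. It measured 5.49, 0.903, 3.23, 2.80 and 2.43 CPM in HFD S100a8fl/fl livers, against 0.364, 0.180, 0.305 and 0.295 CPM in chow S100a8fl/fl livers. Both cohorts rose without overlap, by 1.88 ± 0.43 and 3.35 ± 0.45, and the difference was -1.47 ± 0.61 (adjusted p = 0.413). S100a9, the partner of S100a8 in calprotectin, measured 0.975, 0.914, 1.33, 1.31 and 1.85 CPM in HFD WT livers, against 0.672, 2.50 and 0.476 CPM in chow WT livers. It measured 1.48, 0.855, 0.808, 0.807 and 0.998 CPM in HFD S100a8fl/fl livers, against 0.312, 0, 0.203 and 0 CPM in chow S100a8fl/fl livers. The WT diets overlapped and the S100a8fl/fl diets did not, and the difference of -2.81 ± 0.86 was not called (adjusted p = 0.208).

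Of 20 measured chemokine and inflammation genes 11 rose in each cohort, 9 of them in both, and 6 in the WT cohort without chow WT library 2. None fell in the WT cohort, and 2, Il6ra and Nfkbia, fell in the S100a8fl/fl cohort. Of 22 interferon genes 10 rose and 2 fell (Irf1 and Bst2) in the WT cohort, and 7 rose and 1 fell (Irf7) in the S100a8fl/fl cohort, all 7 that rose being shared. Kupffer cell markers moved too: 6 of 9 rose in the WT cohort, or 1 without chow WT library 2, and 2 of 9 in the S100a8fl/fl cohort. Their sums were 235 to 426 CPM in HFD WT, 151 to 165 CPM in chow WT, 291 to 504 CPM in HFD S100a8fl/fl and 123 to 435 CPM in chow S100a8fl/fl livers, and their part in the macrophage results was not tested. Of the other marker lists, both measured neutrophil markers (S100a9 and Csf3r) were higher on HFD in the S100a8fl/fl cohort and 0 in the WT cohort. They summed to 3.66 to 5.08 CPM in HFD WT, 2.19 to 4.0 CPM in chow WT, 3.04 to 4.65 CPM in HFD S100a8fl/fl and 0.300 to 1.92 CPM in chow S100a8fl/fl livers, and their part in the inflammatory results was not tested. Hepatocyte markers had 3 of 9 lower in the WT cohort and 2 of 9 in the S100a8fl/fl cohort, and adipocyte markers had 2 of 5 higher in the WT cohort and 1 higher and 1 lower in the S100a8fl/fl cohort. For endothelial cells 2 of 7 were higher on HFD in the WT cohort and 5 of 7 in the S100a8fl/fl cohort, smooth muscle had 0 and 2 of 5 higher, and B cells had 1 higher and 2 lower of 6 in the WT cohort and 0 of 6 in the S100a8fl/fl cohort. Neither mesothelial (6 genes) nor erythroid (5 genes) markers passed a test in either cohort.

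Cell cycle transcripts were higher on HFD in both cohorts for 12 of 20 measured genes. Mcm2, a subunit of the replicative helicase, measured 8.90, 6.24, 10.6, 13.8 and 13.9 CPM in HFD WT livers, against 3.46, 2.65 and 4.05 CPM in chow WT livers. It measured 20.8, 14.3, 15.6, 12.2 and 25.6 CPM in HFD S100a8fl/fl livers, against 3.12, 2.76, 3.15 and 1.67 CPM in chow S100a8fl/fl livers. The diets did not overlap, with responses of 1.66 ± 0.30 and 2.73 ± 0.29 and a difference of -1.07 ± 0.39 (adjusted p = 0.329). Of 20 cell cycle genes 14 rose in the WT cohort and 13 in the S100a8fl/fl cohort, 12 of them in both.

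Of 20 endoplasmic reticulum chaperone genes, 16 fell in the WT cohort and 7 in the S100a8fl/fl cohort, 6 of them in both, and 0 differences were called by edgeR, DESeq2 or limma-voom (4 at an unadjusted p under 0.05). The WT count was 8 with the block, and the S100a8fl/fl count was 3 without chow S100a8fl/fl library 2 and 3 without chow S100a8fl/fl library 5. Creld2, a secreted factor of the unfolded protein response, measured 48.3, 35.6, 38.3, 28.1 and 43.1 CPM in HFD WT livers, against 110.2, 161 and 222 CPM in chow WT livers. It measured 35.0, 29.1, 45.8, 65.7 and 39.3 CPM in HFD S100a8fl/fl livers, against 57.2, 85.4, 67.2 and 140.0 CPM in chow S100a8fl/fl livers. HFD was below chow in both cohorts, with overlap in the S100a8fl/fl cohort, and the responses were -2.09 ± 0.29 and -1.02 ± 0.27, with a difference of -1.06 ± 0.39 (adjusted p = 0.334). Without chow S100a8fl/fl library 5 the S100a8fl/fl response was not called (adjusted p = 0.0595). Asns, the asparagine synthetase of the integrated stress response, fell by 2.21 in the WT cohort and by 1.63 in the S100a8fl/fl cohort, and of 15 genes of that response 1 rose and 4 fell in both cohorts.

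Bile acid and xenobiotic genes completed the hepatocyte lists. Cyp7b1 and Cyp27a1 of the alternative bile acid pathway fell in both cohorts, Cyp27a1 by 0.71 and 0.70 log2 units with a difference of -0.01 ± 0.16 (95% interval -0.34 to 0.32). Of 13 bile acid genes these were the 2 called in the same direction in both cohorts. Of 27 xenobiotic genes 5 rose and 7 fell in both, among them Cyp2c38, which rose by 2.36 ± 0.19 and 1.45 ± 0.17.

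**Figure D5:**
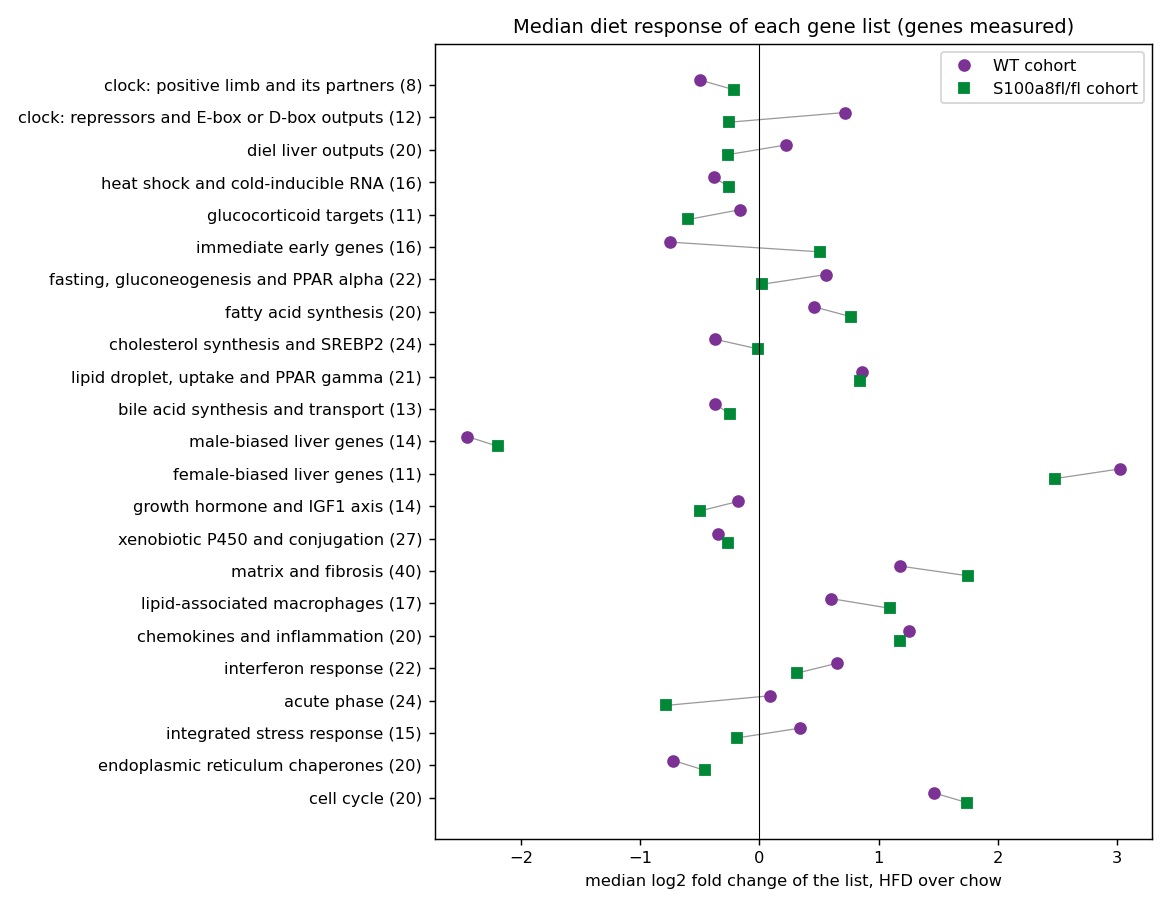
Median diet response (log2 HFD over chow) of each gene list in the WT and S100a8fl/fl cohorts, with the number of measured genes. The matrix list lies at 1.18 and 1.75, the male-biased list at -2.45 and -2.20, and the clock repressor and output list at 0.72 and -0.26 in the WT and S100a8fl/fl cohorts.

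Among the repeated genes named here, Sprr1a was at 0 in all 7 chow livers. It encodes a small proline-rich cornified envelope protein and measured 2.55, 0.261, 0.745, 7.87 and 12.0 CPM in HFD WT livers and 24.0, 1.09, 12.3, 6.37 and 5.77 CPM in HFD S100a8fl/fl livers. The limit that 0 counts allow was set at 3 counts over all the chow libraries of a cohort. Pooled over the HFD livers, the level was at least 106-fold above it in the WT cohort and at least 295-fold in the S100a8fl/fl cohort. These folds do not hold for each liver, as HFD WT 2 measured 0.261 CPM against a limit of 0.0383 CPM before TMM scaling. This floor covers counting error only, and the WT call was lost without chow WT library 1 or 2 (adjusted p = 0.054 and 0.0602).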

How the data were processed

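Poly(A)-selected RNA from whole liver was sequenced on an Illumina HiSeq instrument. The authors deposited raw counts per gene, one table for each experiment, and the submitters' processing notes name FastQC, Trimmomatic, HISAT2, SAMtools and featureCounts with GRCm38. Tool versions, annotation release, strand setting, the hour of tissue collection and the feeding state of the mice are not given in the sources used here. Columns of the authors' own comparisons (fold changes, p-values and a rank score) were not used. Both tables leave out genes of low count, with lowest mean counts of 7.125 and 8.67, so a gene missing from 1 table was not analysed here. Genes were joined by Ensembl identifier after repeated entries were collapsed (14628 entries to 14436 genes and 14030 to 13817). Positions are from GENCODE M21 (13369 of 13377 genes).

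Counts were fitted in edgeR 4.0.16 (R 4.3.3) with TMM factors over all 17 libraries, its expression filter (which removed 0 genes), a mean for each of 4 groups and the quasi-likelihood test. Benjamini-Hochberg adjustment ran over all 13377 genes, and a gene was called at adjusted p under 0.05. Fold changes are given ± SE, and principal components used log2 CPM with a prior count of 2. DESeq2 1.42.0, limma-voom (limma 3.58.1), RLE factors, a filter of 1 CPM in 3 libraries, all 34 libraries, each cohort alone, a replicate block and each library left out were alternatives. Leaving out chow WT 2 and HFD WT 1 together was chosen after seeing the data. The code was tested on simulated data, and tables and plots were made in Python 3.11.15 (pandas 2.3.3, NumPy 2.4.6, matplotlib 3.10.9). Within each of the 4 groups no pair of libraries agreed within sampling noise, and pairs across groups were not checked. The 95% intervals come from the edgeR fit and cover the spread between libraries. The floor from counts covers counting error only.

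The labels give a replicate number and no shared litter or day. Same-numbered HFD and chow libraries deviated together at r = 0.134, 0.18 and 0.166 in the WT cohort, all over the threshold of 0.1, and at 0.199, 0.205, 0.092 and 0.039 in the S100a8fl/fl cohort, where the threshold was not met by every pair. For WT number 3 and S100a8fl/fl number 5 the closest chow library had another number.

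Genes were named by rule: all clock genes of both lists, the 10 highest and 10 lowest called differences with a mean of at least 1 CPM in a group and a symbol that is not a gene model, the 8 repeated genes in each direction with the largest smaller fold change, up to 4 members of each list by smallest p, and genes the study follows. Members given where a count is 5 or fewer, and the further genes of called difference, were chosen after their values were seen. Genes, lists and tests were chosen with earlier results of these data known. Results of some genes are not reported here.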

Additional observations from a re-analysis of the deposited data

Results flagged for a closer look

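The difference in diet response between the cohorts was called for 31 genes whose estimates are given above (WT minus S100a8fl/fl, log2 scale). It was positive for Dbp (5.20), Per3 (2.43), Tef (1.68) and Nr1d2 (1.10) of the clock, and for Saa2 (7.47), Cabyr (2.09), Rims3 (2.01), Cyp4a10 (1.85), Usp2 (1.68), Tbx3os1 (1.53), Pnldc1 (1.53), Cyp2a5 (1.42), Klhl21 (1.10) and Slc22a5 (1.09). It was negative for Nr4a1 (-3.32), Cdkn1a (-2.97), Ppard (-2.50), Pdk4 (-2.42), Tubb2a (-2.37), Dpt (-2.14), Irs2 (-2.04), Elovl3 (-2.04), Dnmt3b (-1.94), Chka (-1.83), Sox9 (-1.62), Lgalsl (-1.41), Ddc (-1.24), Gldc (-1.18), Cldn1 (-1.16), Insig2 (-0.88) and Slc44a1 (-0.70). The differences of Septin9, Ggt6 and Pdlim1, named above without estimates, were also called. Mouse line, experiment, count table and cohort cannot be told apart for any of these genes.

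Single libraries lay far from the rest of their group in 25 cases over 315 groups of 4 or 5 libraries, by a gap that chance gives in about 1 in 20 groups. Chow S100a8fl/fl library 2 was the high one for Saa2 (20131 CPM), Saa1 (20070 CPM), Lcn2 (1743 CPM), Saa3 (732 CPM) and Mt1 (598 CPM), and HFD S100a8fl/fl library 2 for Saa2 (344 CPM), Saa1 (659 CPM) and Hao2 (15.4 CPM). Chow S100a8fl/fl library 5 was the high one for Egr1 (176 CPM) and Nr4a1 (16.4 CPM), and chow S100a8fl/fl library 4 for Mup7 (6864 CPM). HFD S100a8fl/fl library 5 was low for Dbp (72.0 CPM) and high for Cry1 (17 CPM) and Lgalsl (21.6 CPM). In the other HFD S100a8fl/fl libraries, library 1 was high for S100a9 (1.48 CPM), library 3 for Ddc (65.6 CPM) and library 4 for Rims3 (3.57 CPM). Among HFD WT livers, library 1 was high for Hsd3b5 (10.0 CPM) and Bhlhe41 (1.37 CPM), library 2 for Hspa1a (1.21 CPM), library 3 for Egr1 (25.5 CPM) and Slc22a5 (34.7 CPM), library 4 for Cyp2b9 (332 CPM) and library 5 for Trem2 (5.69 CPM) and Srebf1 (469.9 CPM).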

How the results depend on the processing

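The main counts were 53 called differences, 2050 WT responses, 2766 S100a8fl/fl responses and 1117 repeated responses. The number of called differences was 209 with DESeq2, 198 with limma-voom, 126 with all 34 libraries and 31 with replicate number as a block. WT responses numbered 3259 with limma-voom, 1361 with each cohort fitted alone and 1213 with the block. Repeated responses numbered 703 with the block and 489 where both absolute log2 fold changes were at least 1. The causes were not tested. Without chow WT 2 and HFD WT 1 together, chosen after seeing the data, there were 1246 WT responses, 760 repeated responses and 38 differences. With 1 library left out at a time, differences ranged from 23 (without chow WT 1) to 67 (without chow S100a8fl/fl 5), WT responses from 1277 (without chow WT 2) to 2159, S100a8fl/fl responses from 1907 (without HFD S100a8fl/fl 1) to 3628 (without chow WT 2) and repeated responses from 790 (without chow WT 2) to 1115. Of the 53 differences, 52 were called again with DESeq2, 51 with limma-voom, 52 with RLE factors, 49 with all 34 libraries and 18 with the block, and all 53 kept their sign in each of these fits. RLE factors and a filter of 1 CPM in 3 libraries kept each of the 4 counts within 1.5 times, and the expression filter removed 0 genes, so leaving it out changed nothing. Over the named genes and all alternatives, no called response or difference reversed. Between 3 and 5 libraries a group, with a median standard error of 0.28 for the difference, limit which differences could be called.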
